A study of Mus musculus with 19 samples.

Results

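TEAD bound 5695 regions in WT mouse liver, and 263 of these regions (4.62%) had no TEAD peak after 7 days of YAP induction. These 263 peaks, called lost peaks here, were chosen by a single criterion: each WT TEAD peak that shared not 1 bp with any of the 38984 TEAD peaks at 7 d. The other 5432 WT peaks overlapped a 7 d peak and are called retained. Since the WT and 7 d TEAD lists selected the lost peaks, their WT values and their distance to 7 d peaks are given as a description only. Comparisons were made on the 3 d TEAD list, the YAP lists, genomic position and sequence. Of these, the 7 d YAP list is not independent of the criterion, because YAP binds chromatin mainly through TEAD. Nor is the 3 d TEAD list fully independent, since YAP was also induced and the fragment length was nearly that of the 7 d list.

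The data came from ChIP-seq of whole C57BL/6 mouse liver with an antibody against TEAD (ARP38276) or YAP. All mice carried ROSA26-rtTA-IRES-EGFP, and in the study's methods the tetYAP mice also carried Cre under the albumin promoter, which is active in hepatocytes. WT mice lacked the YAP transgene and had eaten doxycycline food for 7 days, whereas tetYAP mice, which express activated YAP on doxycycline, had eaten it for 3 days (3 d) or 7 days (7 d). There were 3 replicates per group and antibody, and 4 for TEAD at 7 d, which the authors merged before calling 1 peak list per group. The merged TEAD libraries held 35168765 tags in WT, 55032002 at 3 d and 38523843 at 7 d, and those for YAP 34260362 to 54661175. No spread between mice can be computed from merged lists, so no p-value is given for any difference, and all intervals below are 95% intervals that cover counting error over peaks only. Peak lists hold no expression, so the tissue label could not be checked against marker genes.

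TEAD proteins (TEAD1 to TEAD4) bind DNA through the TEA domain, which reads the sequence GGAATG, or CATTCC on the other strand, and activate little by themselves. YAP, which the Hippo kinases keep in the cytoplasm, has no DNA-binding domain and reaches chromatin mainly through TEAD. In the adult liver YAP is low in hepatocytes and higher in bile duct cells, and stellate and endothelial cells use the YAP/TEAD pathway as well. In whole liver, fewer cells of a type and less binding per cell cannot be told apart.

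The sequences under 6 of the 12 lost peaks with the highest WT −log10 p show that the TEAD motif was present in some lost peaks and not in others. Each is the 200 bp around the WT summit in the mm9 build (NCBIM37), 5′ to 3′, and capitals mark GGAATG or CATTCC. Of the 12 peaks, 5 hold the motif and 7 do not. All 5 with it are shown first, and 1 of those without it, the Cox6c peak, comes last.
Kcna5 peak, chr6:126510208-126510407, plus strand: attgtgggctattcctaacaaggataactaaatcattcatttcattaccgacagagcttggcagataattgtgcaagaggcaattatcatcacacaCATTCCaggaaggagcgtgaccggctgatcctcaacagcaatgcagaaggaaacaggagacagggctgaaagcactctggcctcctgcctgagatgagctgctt
Fam84b peak, chr15:60524134-60524333, plus strand: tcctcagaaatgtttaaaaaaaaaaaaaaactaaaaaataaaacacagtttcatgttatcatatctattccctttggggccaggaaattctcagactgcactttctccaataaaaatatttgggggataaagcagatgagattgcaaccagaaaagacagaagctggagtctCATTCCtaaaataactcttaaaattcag
Adamts9 peak, chr6:93016144-93016343, plus strand: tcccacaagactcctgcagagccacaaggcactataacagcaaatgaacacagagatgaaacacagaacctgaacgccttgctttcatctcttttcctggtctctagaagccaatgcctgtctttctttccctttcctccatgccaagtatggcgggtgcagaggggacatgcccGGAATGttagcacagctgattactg
Cpz peak, chr5:35883359-35883558, plus strand: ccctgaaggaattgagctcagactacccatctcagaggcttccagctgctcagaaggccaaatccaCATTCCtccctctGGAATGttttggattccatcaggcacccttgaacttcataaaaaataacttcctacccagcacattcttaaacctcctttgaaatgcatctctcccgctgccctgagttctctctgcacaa
4921513I03Rik peak, chr10:120197659-120197858, plus strand: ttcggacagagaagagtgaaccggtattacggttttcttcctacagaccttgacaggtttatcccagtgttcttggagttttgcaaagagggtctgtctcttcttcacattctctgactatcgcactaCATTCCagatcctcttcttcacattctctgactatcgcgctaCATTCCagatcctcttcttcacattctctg
Cox6c peak, chr15:35857194-35857393, plus strand: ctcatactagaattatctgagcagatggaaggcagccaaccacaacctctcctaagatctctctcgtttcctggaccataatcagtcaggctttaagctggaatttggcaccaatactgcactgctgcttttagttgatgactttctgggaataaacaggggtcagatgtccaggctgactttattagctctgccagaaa
The Kcna5 peak has the motif centred 1 bp before the summit. In the Fam84b and Adamts9 peaks it lies 75 and 78 bp after the summit. The Cpz peak has it on both strands, 31 and 18 bp before the summit, and the 4921513I03Rik peak has the same strand of it at 31 and 73 bp after the summit, in a window where a run of 33 bp occurs again.

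Lost peaks were among the weaker WT peaks. Their fold enrichment, the ratio of fragment pileup at the summit to local background, had a median of 4.39 in WT, against 5.05 for retained peaks, and ranged from 1.62 to 8.11. Their median −log10 p was 12.45 against 16.04, their median pileup 35 against 40 fragments and their median length 457 against 544 bp. The lost peaks lay below the median −log10 p of all WT peaks in 208 of 263 cases. When the WT list was divided into 10 classes of −log10 p, 60 of 580 peaks (10.3%) were lost from the weakest class, 38 of 550 (6.91%) from the fifth, 9 of 562 (1.60%) from the eighth and 2 of 554 (0.361%) from the ninth. None of the 565 peaks of the strongest class was lost. A count of 0 allows a share of up to 0.531% when 3 counts are taken as its limit, and the upper bound of the Wilson interval is 0.675%. Most peaks of even the weakest class were therefore retained.

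**Figure D1:**
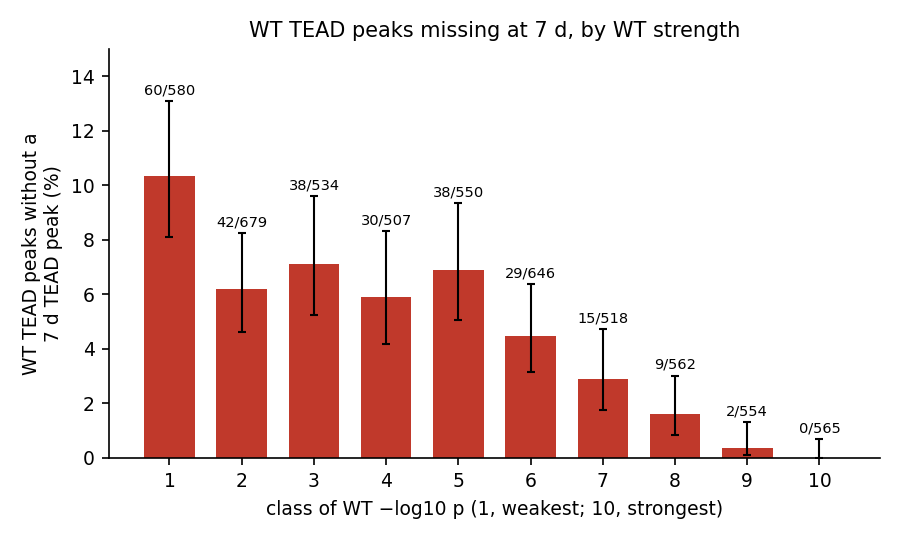
Share of WT TEAD peaks without a TEAD peak at 7 d (y axis, percent) in 10 classes of WT −log10 p (x axis); bars are shares, error bars 95% Wilson intervals, and the numbers lost peaks over all peaks of the class. The share is 10.3% in the weakest class and 0 in the strongest.

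The strongest lost peak was at chr6:126509977-126510561, 24735 bp from the start of Kcna5, which encodes a voltage-gated potassium channel. It was 8.11-fold enriched in WT (−log10 p 34.36, rank 729 of 5695) and 8.95-fold at 3 d, and the nearest 7 d TEAD peak was 61649 bp away. The other WT peak nearest to Kcna5 was 8.03-fold enriched in WT, 15.64-fold at 3 d and 14.27-fold at 7 d. Peaks of like WT enrichment near the same gene thus differed in the 7 d list.

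The next strongest lost peaks were spread over introns and intergenic sequence. One lay at chr15:35856993-35857555 in an intron shared by Vps13b and Cox6c (7.19-fold in WT, 7.08-fold at 3 d), the latter a subunit of cytochrome c oxidase. Another, at chr18:17798538-17799077, was 830971 bp from its nearest start, that of the N-cadherin gene Cdh2 (7.05-fold in WT, 9.19-fold at 3 d). Both were 10287 bp or more from a 7 d peak. The peaks nearest to Fam84b and Neil3 were each 6.91-fold enriched in WT. At 3 d the Fam84b peak was 4.60-fold and the Neil3 peak 7.39-fold enriched. Neil3 encodes a DNA glycosylase. The peaks nearest to Adamts9, a secreted metalloprotease, and to Cpz, a carboxypeptidase, were 6.31- and 6.51-fold enriched in WT. At 3 d the first was 4.78-fold and the second 8.04-fold enriched. An intron of Sbf2 held a lost peak that was 6.25-fold enriched in WT and 9.03-fold at 3 d. The other 3 WT peaks nearest to Sbf2 were retained, and 1 of them overlapped a YAP peak at 7 d, with TEAD 39.41-fold enriched there.

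By 3 d of induction most lost peaks were still called, though less often than retained peaks. A 3 d TEAD peak overlapped 204 of the 263 lost peaks (77.6%, interval 72.1 to 82.2), against 5398 of 5432 retained peaks (99.4%), a difference of -21.8 percentage points (interval -27.2 to -17.2). Among all WT peaks, 93 (1.63%) had no 3 d peak, so 59 of these 93 were lost peaks. The difference was -21.5 points after the retained peaks were reweighted to the lost peaks over the 10 classes of WT −log10 p. It thus exceeded counting error among WT peaks of like strength. The 3 d and 7 d lists were called with fragment lengths of 207 and 206 bp, and the WT list with 400 bp. The part of this setting in the difference was not tested.

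The 3 d enrichment of lost peaks also lay below that of retained peaks of like WT strength. The median 3 d fold enrichment of the 204 lost peaks was 5.59, against 12.1 for retained peaks and 9.78 for the reweighted ones. The median of all 3 d TEAD peaks was 5.44, so lost peaks were weak beside retained peaks but not within the 3 d list. The median 3 d −log10 p was 16.3 against 57.6 and 41.5. Of the 36446 peaks at 3 d, ranked by −log10 p, the median lost peak was at rank 16797 and the median retained peak at rank 3440. Of 4 equal parts of the 3 d list by strength, the strongest held 23 of the 204 lost peaks, the next 88, the third 68 and the weakest 25. By contrast, 4468 of 5398 retained peaks fell in the strongest. Enrichment was nominally higher at 3 d than in WT in 169 of 204 lost peaks and in 5335 of 5398 retained peaks. The 2 lists were called with fragment lengths of 400 bp (WT) and 207 bp (3 d), and at 3 d from more tags, and the part of these settings in the fold values was not tested.

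**Figure D2:**
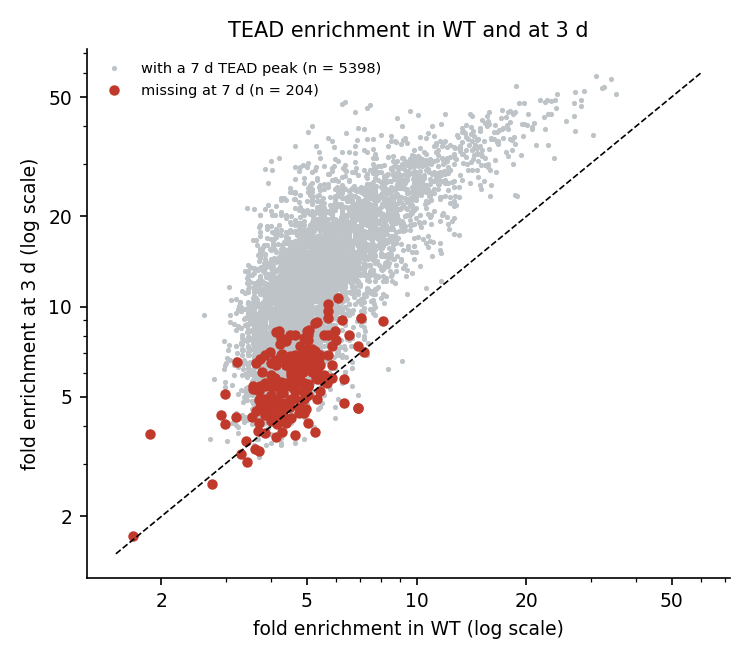
TEAD fold enrichment in WT (x axis) and at 3 d (y axis), both on log scales, for WT peaks with a 3 d peak; red, the 204 lost peaks; grey, 5398 retained peaks; the dashed line marks equal values. Lost peaks occupy the lower edge of the cloud, up to 10.69-fold at 3 d.

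The highest 3 d enrichment among lost peaks was near 4921513I03Rik at chr10:120197529-120198053, with 6.11-fold in WT and 10.69-fold at 3 d (rank 4266). In an intron of Sh3pxd2a, which encodes a podosome scaffold, a lost peak was 5.72-fold enriched in WT and 10.18-fold at 3 d. A peak 58230 bp from Fos, the AP-1 subunit, was 5.72-fold enriched in WT and 9.69-fold at 3 d, and a peak near Ehbp1 5.26-fold and 8.84-fold. The peak 238 bp from the start of Eif4e3, a cap-binding protein, was 5.01-fold enriched in WT and 8.31-fold at 3 d. These 5 peaks were among the first 6487 of the 36446 peaks at 3 d and had no counterpart at 7 d.

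Absence from the 7 d list fell with 3 d strength at sites with and without a WT peak. Of 3 d peaks with −log10 p under 10, 39 of 87 with a WT peak (44.8%, interval 34.8 to 55.3) and 3957 of 6896 without one (57.4%) had no 7 d peak. For −log10 p from 10 to 15 the shares were 29.5% of 258 and 34.8% of 10259. For 15 to 20 they were 17.2% of 303 and 15.1% of 5301. For 20 to 25 they were 10.4% of 337 (interval 7.56 to 14.1) and 6.28% of 2643 (interval 5.42 to 7.27). From 40 upward they were 0.0548% of 3649 and 0.146% of 2055. In the weakest class sites with a WT peak were missing less often than the others, and from 20 to 25 more often, with intervals that do not overlap in either case.

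The 5 strongest lost peaks with no 3 d peak all lay in introns. An intron of Mid1 on chromosome X held one at chrX:166433359-166433910, with a WT −log10 p of 21.28 at only 2.61-fold enrichment. An intron of Ephb1, an ephrin receptor gene, held one with 5.58-fold enrichment (−log10 p 18.28) and no TEAD peak of the 3 d or 7 d lists within 50 kb. Introns of Dock4, Adamts10 and Megf11 held the others, which were 4.75-, 5.05- and 5.05-fold enriched. The 59 peaks without a 3 d peak had a median WT fold enrichment of 3.85, and the 204 with one 4.63.

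Lost peaks lay away from promoters. A promoter, defined as the interval from 2000 bp before to 1000 bp after an annotated start, was touched by 35 of the 257 lost peaks on assembled chromosomes (13.6%, interval 9.96 to 18.4), against 1903 of 5428 retained peaks (35.1%). The difference of -21.4 percentage points (interval -25.3 to -16.5) was -22.5 after reweighting by WT −log10 p. Among the peaks with a 3 d peak it was -25.6 points (interval -30.4 to -19.8) after reweighting by 3 d −log10 p, a comparison that was added after the data were seen. Seen from the genome, 1.81% of WT peaks at promoters were lost, compared with 5.95% in gene bodies and 5.90% in intergenic sequence. Within the part of the peaks away from promoters, the lost ones were divided between gene bodies (54.1%) and intergenic sequence like the retained ones (53.8% in gene bodies). The promoter difference depended on the overlap rule: when summits had to lie within 200 bp of each other for a peak to be kept, 603 WT peaks were lost and 32.1% of them touched a promoter, against 34.3% of the others. The 340 peaks which that rule adds overlap a 7 d peak whose summit lies elsewhere, and 46.0% of the 339 of them on assembled chromosomes touched a promoter.

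**Figure D3:**
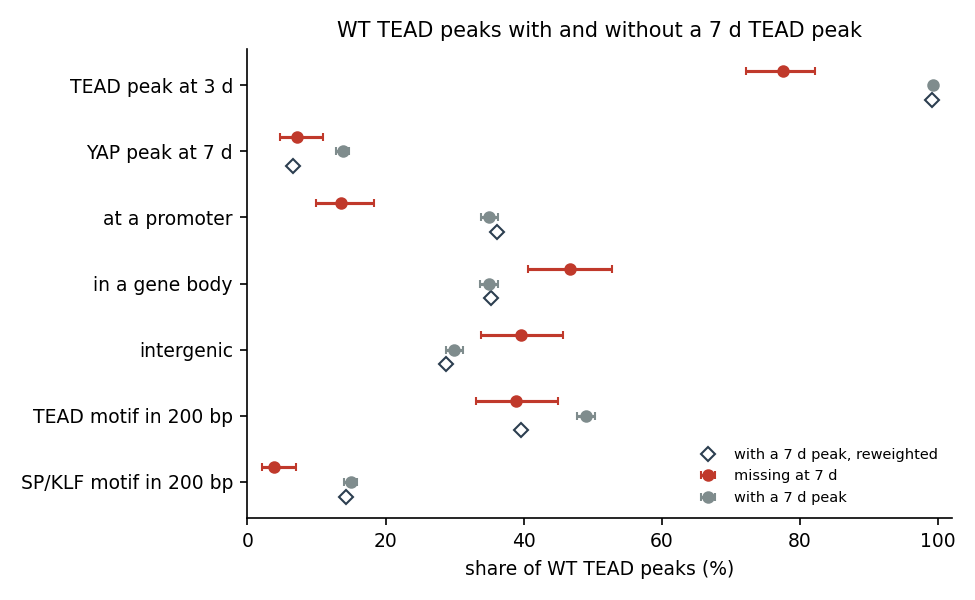
Share of WT TEAD peaks (x axis, percent) with each feature (y axis); red circles, lost peaks; grey circles, retained peaks, both with 95% Wilson intervals; open diamonds, retained peaks reweighted to the WT −log10 p of the lost peaks. The diamond falls within the interval of the lost peaks for the TEAD motif and the 7 d YAP peak, and outside it for the other features.

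The distance to the nearest protein-coding start showed the same shift. Its median was 25577 bp for lost and 7832 bp for retained peaks, and 6967 bp for the reweighted ones. Within 1 kb of a start there were 17 lost peaks (6.61%, interval 4.17 to 10.3), against 28.4% of retained peaks. At 100 kb or more there were 55 lost peaks. The share lost grew with distance, from 1.09% of the 1561 WT peaks within 1 kb to 4.20%, 5.74% and 10.8% (interval 8.36 to 13.7) of those at 1 to 10 kb, 10 to 100 kb and beyond. By annotation of the summit, 132 lost peaks were intronic, 109 intergenic, 8 in a UTR, 3 in coding and 5 in other exons. Few other TEAD peaks surrounded the lost peaks: the median number of further 3 d TEAD peaks within 50 kb was 2, against 4 for retained peaks before and after reweighting.

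**Figure D4:**
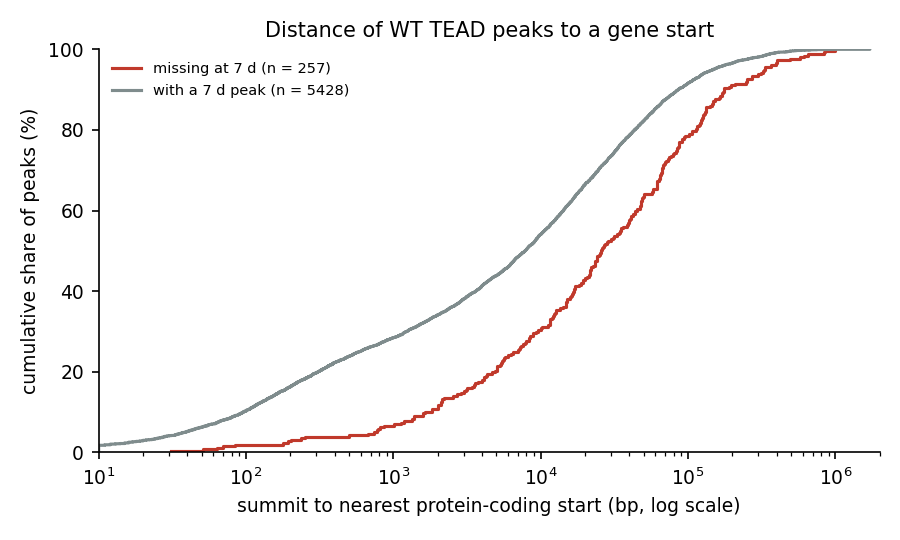
Cumulative share of peaks (y axis, percent) by distance from the summit to the nearest protein-coding start (x axis, bp, log scale; distances under 10 bp drawn at 10) for 257 lost (red) and 5428 retained (grey) peaks. The red curve lies to the right over most of its length, with medians of 25577 and 7832 bp.

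The TEAD motif was rarer in lost than in retained peaks, by less than counting error when retained peaks of like WT strength were compared. GGAATG occurred on either strand within 200 bp around the summit in 100 of 257 lost peaks (38.9%, interval 33.2 to 45.0) and in 2660 of 5428 retained peaks (49.0%). The difference of -10.1 percentage points (interval -16.0 to -3.87) was -0.77 (interval -6.74 to 5.52) after reweighting by WT −log10 p. In windows 2000 bp away from the summits the share was 13.2% for lost peaks and 10.7% for all WT peaks, and at all 7 d TEAD summits it was 35.2%. The lost peaks thus carried the motif more often than their surroundings. Among peaks with a 3 d peak, reweighting by 3 d −log10 p turned the difference to 6.68 points (interval -0.58 to 14.2). The longer ACATTCC, which includes CATTCC, was found in 23.3% of lost and 27.7% of retained peaks, where the interval of the difference (-9.31 to 1.27 points) included 0. Away from promoters, GGAATG differed by -12.7 points (interval -19.1 to -5.94) and ACATTCC by -8.09 (interval -13.4 to -1.94), and after reweighting by WT −log10 p both intervals included 0 (-10.6 to 2.76 and -6.57 to 4.98). At promoters, with 35 lost peaks, ACATTCC differed by 4.12 points (interval -7.59 to 20.6), and by 11.8 points (interval 0.048 to 28.3) after the same reweighting. Reweighting by WT fold enrichment gave 10.6 points there, with an interval that included 0 (-1.20 to 27.1). Of the lost peaks, 83 had 1 copy of GGAATG and 17 had 2 or more. In bins of 50 bp, GGAATG was most frequent next to the summit in both groups, in 12.5% of lost peaks just before and 17.5% just after it, compared with 19.8% and 21.7% of retained peaks.

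**Figure D5:**
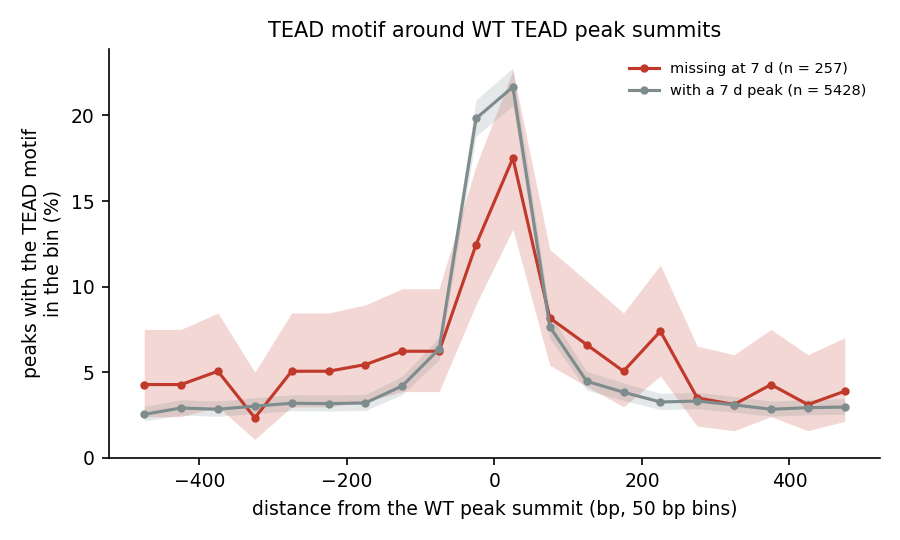
Share of peaks with the TEAD motif (y axis, percent) in 50 bp bins around the WT summit (x axis, bp) for 257 lost (red) and 5428 retained (grey) peaks; bands are 95% Wilson intervals. Both curves peak within 50 bp of the summit, at 17.5% and 21.7%.

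Lost peaks had a lower GC content, and 4 motifs other than that of TEAD were rarer in them. The median GC content of the 200 bp around the summit was 45.0% in lost and 49.5% in retained peaks, and 49.0% after reweighting. GGGCGG, the motif of the SP/KLF factors, occurred in 3.89% of lost and 14.96% of retained peaks, a difference of -11.1 points (interval -13.1 to -7.81). The ETS motif CCGGAAG occurred in 0.778% against 3.89%, the E-box CACGTG in 1.17% against 4.42% and AGGNGGC, part of the CTCF motif, in 9.73% against 15.9%, each with an interval of the difference below 0. Those 4 motifs were found in 3.50%, 0.809%, 2.46% and 10.7% of the windows 2000 bp away. Away from promoters, GGGCGG was found in 3.15% of lost and 5.93% of retained peaks, with an interval of the difference from -4.59 to 0.52 points. CACGTG was found there in 0.901% against 3.43% (interval -3.46 to -0.14, and -3.32 to 0.12 after reweighting), and the median GC content was 45.0% against 47.5%. At promoters, GGGCGG was found in 3 of 35 lost peaks (8.57%), against 31.7% of retained peaks. The interval of that difference was -29.1 to -9.16 points, and -27.3 to -6.87 after reweighting by WT −log10 p. The median GC content at promoters was 46.0% against 54.0%. The motifs of factors that open or maintain hepatocyte enhancers differed by less than counting error in the whole set: TGTTTAC (FOXA) occurred in 5.45% of lost and 5.42% of retained peaks, AAAGTCC (HNF4) in 4.28% and 5.78%, and TTNNGCAA (CEBP) in 11.7% and 14.04%. The intervals of these differences were -2.23 to 3.57, -3.49 to 1.77 and -5.87 to 2.23 points. Away from promoters TTNNGCAA was found in 11.3% of lost and 16.4% of retained peaks, with an interval of the difference from -8.84 to -0.13 points that included 0 after reweighting by WT −log10 p (-7.86 to 1.00). TGANTCA (AP-1) occurred in 7.00% and 6.96%, and CCAAT (NF-Y) in 24.1% and 27.4%. All motifs were searched on both strands, and a match is no proof of binding.

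The YAP peaks at lost peaks lay mostly in a few regions. A 7 d YAP peak overlapped 19 of 263 lost peaks (7.22%), compared with 13.5% of all WT TEAD peaks and 748 of 5432 retained peaks (13.8%). The difference of -6.55 points (interval -9.27 to -2.66) was 0.61 (interval -2.09 to 4.47) after reweighting by WT −log10 p. YAP peaks of WT livers overlapped 21 lost peaks, with 0.931% of all WT TEAD peaks overlapping one, and YAP peaks at 3 d overlapped 16, with 0.878% of all. At YAP peaks called in WT livers 21 of 53 TEAD peaks (39.6%, interval 27.6 to 53.1) were lost. These 21 peaks belong to the few regions described below and are not independent sites. A link between YAP binding in WT and the loss of TEAD peaks was not tested.

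Of the 19 lost peaks with a 7 d YAP peak, 18 lay in regions with YAP peaks already in WT livers. Within 50 kb of a WT YAP peak, a distance chosen after the data were seen, 29 of 74 WT TEAD peaks were lost (39.2%, interval 28.9 to 50.6), compared with 234 of 5621 elsewhere (4.16%). The interval treats the 74 peaks as independent and is too narrow, since 34 of them, 14 of these lost, came from 1 stretch of chromosome 1. Elsewhere only 1 of the 234 lost peaks overlapped a 7 d YAP peak (0.427%), against 716 of 5387 retained peaks (13.3%). That difference was -12.9 points (interval -13.9 to -10.7), and -5.95 (interval -6.85 to -3.86) after reweighting by WT −log10 p. The 1 exception lay on an unplaced sequence. Lost peaks lack a 7 d TEAD peak by definition, and YAP reaches chromatin mainly through TEAD. The criterion thus favours a low 7 d YAP share, and nothing is concluded from this difference. Outside the regions a 3 d YAP peak overlapped 1 of 234 lost peaks (0.427%) and 8 of 5387 retained peaks (0.149%). Among peaks with a 3 d TEAD peak, YAP regions included, the share with a 7 d YAP peak was 4.41% for lost peaks. It was 2.35% for retained peaks reweighted by 3 d −log10 p (interval of the difference -0.37 to 5.91 points).

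The 29 lost peaks in the YAP regions came from few places. Between chr1:90125373 and chr1:90205148, at Heatr7b1, Hjurp and the cold-sensing channel gene Trpm8, 14 of 34 WT TEAD peaks were lost. The strongest, in an intron of Trpm8, was 6.91-fold enriched for TEAD in WT and 4.60-fold at 3 d. At the same site YAP was 5.48-fold enriched in WT, 8.05-fold at 3 d and 4.55-fold at 7 d, and the nearest 7 d TEAD peak was 399 bp away. Weaker lost peaks with a YAP peak included a second one in Trpm8 (3.61-fold in WT) and those in Heatr7b1 (3.43-fold) and Hjurp (3.41-fold), each at a 7 d YAP peak of 3.42- to 4.24-fold. Around Mid1 on chromosome X 5 of 9 were lost, on the unplaced X sequence 5 of 7, and on chromosome 14 near Entpd4 3 of 7. The lost peak with the highest −log10 p at a YAP peak was 2.75-fold enriched for TEAD around Mid1 and 4.39-fold on the unplaced X sequence. The lost peak on a further unplaced sequence was 1.62-fold enriched in WT, with YAP 1.81-fold at 7 d. A single lost peak lay 179 bp from the start of Coil, which encodes coilin of Cajal bodies (TEAD 6.33-fold in WT and 5.75-fold at 3 d, YAP 5.20-, 6.61- and 6.55-fold in WT, at 3 d and at 7 d). In these regions GGAATG was found in 3 of 24 lost peaks on assembled chromosomes, against 97 of 233 outside them. The share in windows 2000 bp away from the summits of all lost peaks was 13.2% (34 of 257). Whether the YAP and TEAD signal in these regions comes from binding was not tested. Without these regions 80.3% of lost peaks had a 3 d peak and 12.9% touched a promoter, close to the values with them.

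Peaks were counted by nearest gene for 12 lists of 14 to 41 genes, and the counts hold for these lists only. None of the 25 WT TEAD peaks nearest to a listed hepatocyte transcription factor gene was lost, nor any of 32 for the list of hepatocyte function, 30 for the Hippo pathway, 16 for the cell cycle, 15 for circadian and 10 for acute-phase and interferon genes. Lists of this length hold too few peaks to be set against the 4.62% lost among all WT peaks. No WT TEAD peak was nearest to a gene of the macrophage or lymphocyte lists. Lost peaks nearest to related genes outside the lists, found after the values were seen, include those nearest to the cell cycle inhibitor gene Cdkn2c, in an exon of 9630013D21Rik (4.12-fold in WT), in an intron of the T-cell co-stimulatory receptor gene Cd28 (4.52-fold) and nearest to the T-cell gene Themis, in an intron of Ptprk (4.98-fold).

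For the list of YAP target genes 4 of 37 WT peaks were lost. At Cyr61, a matricellular protein gene that YAP/TEAD activates, the lost peak lay 2001 bp from the start, was 5.32-fold enriched in WT and 4.91-fold at 3 d, and was 887 bp from a 7 d peak. The 3 other Cyr61 peaks were retained. The one 99 bp from the start was 11.56-fold enriched in WT, 28.07-fold at 3 d and 36.52-fold at 7 d. At Jag1, which encodes a Notch ligand, the lost peak was 332454 bp from the start (4.25-fold in WT, 5.25-fold at 3 d), while the retained peak 37397 bp from it was 6.78-fold enriched in WT, 34.34-fold at 3 d and 50.66-fold at 7 d. The lost peaks nearest to the cytokine gene Tgfb2 (5.05-fold in WT, 5.46-fold at 3 d) and in an intron of Rbms3, an RNA-binding protein gene (4.12-fold and 5.43-fold), lay 189419 and 50412 bp from the starts.

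Of the 20 WT peaks nearest to listed biliary and progenitor genes, 2 were lost, the one at Jag1 and one in an intron of the receptor gene Notch1. The lost Notch1 peak was 3.72-fold enriched in WT and absent from the 3 d list. The retained Notch1 peak was 8.73-fold enriched in WT, 35.68-fold at 3 d and 53.4-fold at 7 d and overlapped a 7 d YAP peak. The lost peak was the weakest in WT of the peaks at Jag1 and Notch1, and at Cyr61 it was the second strongest of 4.

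The lists of endothelial and of stellate and stromal genes had 10 WT peaks together, and 3 of these were lost. The list of stellate and stromal genes had 4 WT peaks, 2 of them lost, at Hand2 (4.52-fold in WT, 6.73-fold at 3 d), a transcription factor of stellate cells, and Hgf (3.76-fold and 6.07-fold), the hepatocyte growth factor. The list of endothelial genes had 6, 1 of them lost, 249483 bp from Cdh5, the gene of VE-cadherin (4.63-fold and 3.74-fold). No 7 d TEAD summit lay within 50 kb of any of these 3 peaks. These counts are too small to set against the share among all WT peaks, and the lists leave out other genes of such cells.

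Outside the YAP regions 12 genes were nearest to 2 or more lost peaks, a criterion applied after the values were seen and of no theme tested here. All 3 WT peaks nearest to C1qtnf7, a secreted C1q/TNF-related protein gene, were lost (4.52-, 4.55- and 4.0-fold in WT), and the nearest 7 d peak was at least 72452 bp from each. Both WT peaks were lost at Arhgap15, Herpud2 and Wdr11. At Igfbp3, whose product binds insulin-like growth factors, 2 of 3 were lost (6.03- and 4.62-fold in WT, 7.73- and 6.71-fold at 3 d), and likewise 2 of 3 at Loxl2, Adamtsl1 and Msi2. The lost peaks were 2 of 4 at Col14a1, 2 of 5 at Tns3 and Gm5148 and 2 of 7 at Arhgap26. Since these genes were picked for their lost peaks, the counts are not read against the 4.62% among all WT peaks.

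A 7 d TEAD summit lay within 50 kb of 191 lost peaks. Distances to 7 d peaks come from the list that selected the lost peaks, so nothing is concluded from them. The nearest 7 d peak was 16601 bp away in the median, with a range of 43 to 1762644 bp. Retained peaks overlap a 7 d peak by definition. The nearest 7 d peak that did not overlap them was 4457.5 bp away in the median, and 4399 bp after reweighting by WT −log10 p. The nearest 7 d peak was under 200 bp away for 8 lost peaks, under 1000 bp for 30, under 10000 bp for 104 and 100000 bp or more for 42. No 7 d summit lay within 50 kb of 72 of the 263. Just inside the criterion were the lost peaks at Ankrd16 (43 bp from a 7 d peak, 3.19-fold in WT), near 4930583H14Rik (51 bp, 3.69-fold) and in Trpm8 (87 bp, 3.96-fold). Just outside it were the retained peaks near Rac1 (overlap of 13 bp, 3.32-fold in WT and 4.86-fold at 7 d), near Fzd1 (16 bp, 3.85- and 4.34-fold) and in Gas7 (23 bp, 3.59- and 7.30-fold). The caller used 400 bp fragments for the WT list and 206 bp fragments for the 7 d list, and the part of this difference in which WT peaks lack a 7 d peak was not tested. A peak outside the 7 d list has no 7 d value, and binding below the caller's threshold cannot be told apart from no binding.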

How the data were processed

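ChIP-seq of YAP and TEAD was measured in 19 liver samples. The authors masked low-quality bases, aligned reads to mm9 with BWA 0.6.2, merged the replicates of each group, removed duplicates and, per the file headers, called peaks with MACS 2.0.9 (p-value cutoff 1e-05) against 1 control of 167176362 tags, with fragment lengths of 400 bp (TEAD in WT), 207 bp (3 d), 206 bp (7 d) and 250 bp (YAP). The deposited values used here were the pileup, a signal, the fold enrichment, a ratio, and −log10 p-values.

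Peaks were compared by overlap of at least 1 bp in Python 3.11.15 (numpy 2.4.6, pandas 2.3.3, scipy 1.17.1, pysam 0.24.0). Shares have 95% Wilson intervals and differences Newcombe intervals. Overlap, reweighting, motif search and the Wilson interval were tested on simulated data, and the Newcombe interval was not. For reweighting, retained peaks were weighted to the lost peaks over 10 classes of WT −log10 p or fold enrichment (alternatively of 3 d −log10 p), and the interval used the effective number of peaks. Positions followed GENCODE vM1 on NCBIM37. The 11 motifs were searched in 200 bp windows. Position and motif steps used assembled chromosomes only. A peak's gene is that of the nearest protein-coding start.

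The lost peaks, the 12 gene lists and the motifs were chosen with earlier results of these data known. Named were the 12 strongest lost peaks by WT −log10 p, the 5 strongest without a 3 d peak, the 5 strongest at 3 d, up to 8 at YAP peaks, up to 4 per gene list and 3 on either side of the criterion, by rule.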

Additional observations from a re-analysis of the deposited data

How the results depend on the processing

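No paired analysis was possible because each deposited list pools the replicates of its group, and leaving out a replicate could not be run either. The repeat content of the summits could not be computed because the genome sequence given does not mark repeats. Of 71 alternative values, 50 stayed within counting error of the reported value or on the same side of 0, and for counts within 1.5 times. Requiring summits within 200 bp gave 603 lost peaks, of which 89.1% had a 3 d peak, 32.1% touched a promoter and 32.6% held GGAATG, with a median GC content of 47.3%. Under that rule 50.4% of the other WT peaks held GGAATG. Keeping only WT peaks of at least 5-fold enrichment gave 68 lost peaks, 95.6% with a 3 d peak and 2.94% with a 7 d YAP peak, and keeping only those with −log10 p of at least 10 gave 86.5% and 4.66%. The share with a 7 d YAP peak was 1.24% without WT peaks at a WT YAP peak and 0.427% without those within 50 kb of one. Promoters of 1000 bp either side gave 8.95%. Windows of 100 and 400 bp gave GGAATG in 25.7% and 51.4%. The difference to retained peaks in the 7 d YAP share became 0.61, 0.025 and 2.06 percentage points on reweighting by WT −log10 p, WT fold enrichment and 3 d −log10 p, and that in GGAATG -0.77, -1.05 and 6.68 points. The 50 kb distance and the reweighting by 3 d −log10 p were added after the data were seen. The causes of these shifts were not tested. The merged 7 d TEAD library held 38523843 tags and the WT one 35168765, and the part of depth in the lists was not tested.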
